A study of Mus musculus with 12 samples.

Results

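The 8 genes described here encode receptors for neurotrophins (Ngfr, Sort1, Ntrk2, Ntrk3) and for ligands of the GDNF family (Ret, Gfra1, Gfra2, Gfra3). They were taken by symbol from a table of read counts for 38087 gene models in mouse sciatic nerve, and all 8 were among the 22384 models with enough reads to test. RNA was compared in 4 groups of 3 libraries, which the labels call biological replicates. The dKO 5DPI and control 5DPI groups were distal stumps taken 5 days after the sciatic nerve was cut, with the tissue next to the cut discarded. The dKO intact and control intact groups were uncut contralateral nerves collected at the same time, with the epineurium removed, a step stated for intact nerves only, so its effect cannot be told apart from that of injury. Tfeb/3 SC-dKO mice (Dhh-Cre+:Tfebflox/flox;Tfe3KO) lack Tfe3 in every cell and lose floxed Tfeb where a Dhh-driven Cre is active, which is the Schwann cell lineage. Control mice (Dhh-Cre-:Tfebflox/flox;Tfe3+) carry the same floxed Tfeb alleles without Cre, so Cre, Tfeb and Tfe3 differ together between genotypes. The labels give no ages for the animals.

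Neurotrophins act through the low-affinity receptor p75NTR, encoded by Ngfr, and through Trk receptor kinases, of which Ntrk2 encodes TrkB and Ntrk3 encodes TrkC. Sort1 encodes sortilin, a sorting receptor that pairs with p75NTR to bind proneurotrophins. GDNF family ligands first bind a lipid-anchored GFRα co-receptor, and the complex then engages the kinase encoded by Ret. Schwann cells that have lost their axons are known for raising p75NTR and GFRα1, and glia outside the brain mostly make TrkB and TrkC forms without the kinase domain. Gene-level counts cannot separate those forms: the annotation lists 10 Ntrk2 and 20 Ntrk3 transcripts, and the level of each gene here is a sum over all of them.

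In these nerves Ngfr rose after transection in both genotypes. Gfra1 rose in control nerve, and its change in dKO nerve did not pass the test. Both genes were lower in dKO than in control stumps. Ntrk2 and Ntrk3 differed the other way at 5 days, with more RNA in dKO stumps. Sort1, Gfra2 and Gfra3 fell after transection in both genotypes. Ret, the signalling kinase of the GFRα co-receptors, passed no test. Levels are given in CPM, read counts scaled to a common library total, with TMM factors, and each change is a log2 ratio with its standard error (SE) from 1 edgeR quasi-likelihood fit over the 12 libraries. Adjusted p-values are Benjamini-Hochberg values over the 22384 tested models, with a threshold of 0.05.

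Library totals ran between 15430999 and 35845371 counts. Control 5DPI replicate 1 read as female (Xist 10712 counts, 244 counts of Y-linked genes) while the other 11 libraries held at most 23 Xist counts. Control 5DPI replicate 4 and the 3 dKO 5DPI libraries formed a set apart, with reads on 174 to 381 olfactory receptor genes at equal depth, against 52 to 78 in the other 8 libraries. That set holds every dKO 5DPI library, so at 5 days only control 5DPI replicate 4 compares the genotypes within it. It holds no dKO intact library, so in dKO nerve the change with transection cannot be told apart from a difference of the set. A term for the set is estimated from the control 5DPI libraries alone, with replicate 4 inside the set and replicates 1 and 2 outside. Of the deleted genes, Tfeb averaged 21.2 ± 7.91 CPM in dKO 5DPI and 20.2 ± 3.34 CPM in control 5DPI libraries, and 17.9 ± 1.35 CPM in dKO intact and 24.5 ± 2.21 CPM in control intact libraries (SD, n = 3 each). Tfe3 averaged 51.9 ± 2.21 CPM in dKO 5DPI and 61.4 ± 6.35 CPM in control 5DPI libraries, and 45.7 ± 2.11 CPM in dKO intact and 59.8 ± 2.83 CPM in control intact libraries. Neither gene passed the test between genotypes (edgeR, smallest adjusted p = 0.126). Counts over whole gene models do not test whether the deleted exons are missing.

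The promoters of Ngfr and Gfra1 are shown to give the sequence around their start sites. Promoter windows of 3 of the 8 receptor genes were searched, from the RefSeq table used (build GRCm38.p6, 250 bases before to 50 after the start, 5′ to 3′). Capitals mark GC boxes, GGGCGG on either strand, the only searched motif with a match. The Ngfr window is chr11:95587649-95587948 and the Gfra1 window chr19:58455349-58455648, both on the minus strand. The Gfra1 window lies inside the gene model, whose 5′ end is at chr19:58455909, and the sequence around that end was not searched.
Ngfr: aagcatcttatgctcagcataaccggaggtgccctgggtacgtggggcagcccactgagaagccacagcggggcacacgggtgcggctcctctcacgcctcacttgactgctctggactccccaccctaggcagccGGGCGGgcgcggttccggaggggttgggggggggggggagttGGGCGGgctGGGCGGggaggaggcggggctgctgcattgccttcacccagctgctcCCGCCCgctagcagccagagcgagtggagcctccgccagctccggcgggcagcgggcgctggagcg
Gfra1: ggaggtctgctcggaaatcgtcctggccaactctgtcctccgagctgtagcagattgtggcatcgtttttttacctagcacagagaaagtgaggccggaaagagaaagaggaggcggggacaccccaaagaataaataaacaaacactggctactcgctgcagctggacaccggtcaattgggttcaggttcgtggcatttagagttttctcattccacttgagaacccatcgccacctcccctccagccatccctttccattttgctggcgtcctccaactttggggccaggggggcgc
The Ngfr window held 4 GC boxes, the Gfra1 window 0 and the Ntrk2 window 1. Of 32851 promoters in the table, 35.7% held at least 1. The 3 windows held no CACGTG, the E-box core that TFEB and TFE3 bind, on either strand, where 7.15% of promoters did. They also held no TGACTCA or TGAGTCA, the site bound by AP-1 factors such as Jun, where 5.2% of promoters did. GC content was 71.7% for Ngfr, 54% for Gfra1 and 61.3% for Ntrk2, beside a median of 52.7% over all promoters. These matches describe letters in 1 window each, and the search for GC boxes was added after the data were seen.

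Ngfr lies on chr11:95568818-95587735 (GRCm38, minus strand) and its product is the receptor most used to mark immature and repair Schwann cells. It read 582, 502 and 458 CPM in dKO 5DPI replicates 2, 3 and 4, and 1905, 1687 and 1315 CPM in control 5DPI replicates 1, 2 and 4. In dKO intact replicates 2, 3 and 4 it read 44.3, 48.4 and 67.6 CPM, and in control intact replicates 1, 2 and 3 it read 75.02, 69.5 and 85.7 CPM. Every 5DPI library was above every intact library, and the lowest control 5DPI library was above the highest dKO 5DPI library. Transection raised Ngfr 21.3-fold in control nerve (log2 4.41, SE 0.194, edgeR adjusted p = 4.31e-10). In dKO nerve it rose 9.62-fold (log2 3.27, SE 0.185, edgeR adjusted p = 8.07e-09). Levels were 3.18-fold lower in dKO than in control stumps (log2 -1.67, SE 0.173, edgeR adjusted p = 3.13e-05). The change in dKO minus that in control was -1.15 on the log2 scale (SE 0.240, edgeR adjusted p = 0.0179). In intact contralateral nerve Ngfr was also lower in each dKO library than in each control one. That difference did not pass (log2 -0.52, SE 0.171, edgeR adjusted p = 0.850). Libraries of those groups did not overlap for 14.6% of all tested models.

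With a term for the set of libraries described above, the genotype difference at 5 days rests on control 5DPI replicate 4 alone, and it was -1.35 for Ngfr (edgeR adjusted p = 0.0037). The difference between the injury changes was then -0.83 and not called (edgeR adjusted p = 0.258). It was also not called without dKO 5DPI replicate 3 (-1.13, adjusted p = 0.0569) or without dKO 5DPI replicate 4 (-1.07, adjusted p = 0.0506). A block for replicate number, given below, lost that call too. In bulk RNA a smaller number of cells of a type and less RNA per cell cannot be told apart. Schwann cell markers moved in the same direction as Ngfr: 4 of 6 were lower in dKO stumps (Cdh19, Foxd3, S100b and Sox10), and their summed level was 1146 to 1189 CPM in dKO 5DPI and 1520.5 to 2219 CPM in control 5DPI libraries. Of 12 repair Schwann cell markers 5 were lower, Jun, Sox2 and Runx2 among them, and 0 were called higher. Gfap (11.4 against 5.17), Tnc (515 against 487) and Lif (26.6 against 26.3) averaged more CPM in dKO 5DPI than in control 5DPI libraries. The repair markers summed to 1510.2 to 1738 CPM in dKO 5DPI and 1985 to 2572 CPM in control 5DPI libraries. All 10 myelin genes were higher, with sums of 3884 to 4930 CPM in dKO 5DPI and 1113 to 1417 CPM in control 5DPI libraries. Over all tested models 8.97% were called lower and 3.12% higher in dKO stumps. No marker of these lists was at 0 throughout a group, and their part in the receptor differences was not tested.

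**Figure D1:**
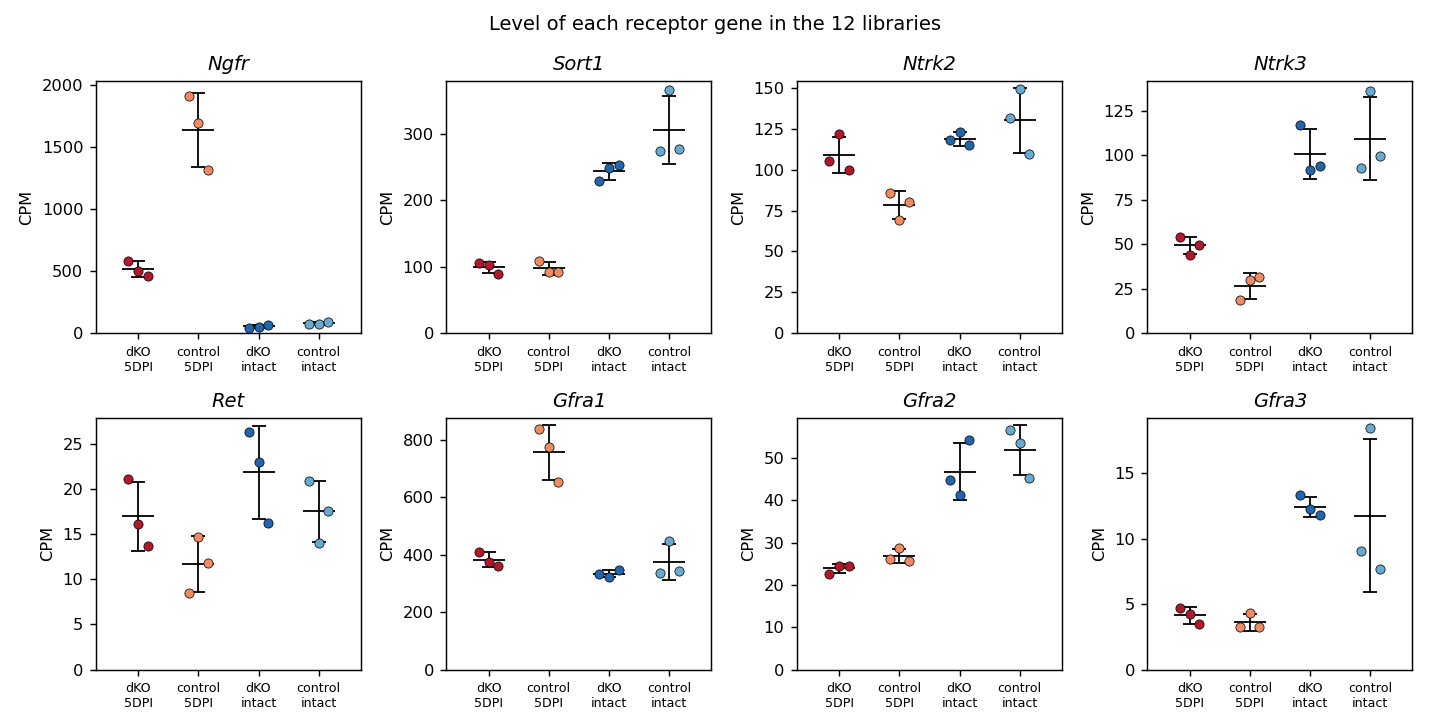
Level of each receptor gene in CPM (linear axes from 0) in every library, with points for libraries and bars for the mean ± SD of 3. For Ngfr the 3 control 5DPI libraries sit between 1315 and 1905 CPM and the 3 dKO 5DPI libraries between 458 and 582 CPM.

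Gfra1, on chr19:58235604-58455909 (minus strand), encodes the co-receptor that binds GDNF itself. It read 412, 376 and 360.1 CPM in dKO 5DPI replicates 2, 3 and 4, and 840.1, 775 and 655 CPM in control 5DPI replicates 1, 2 and 4. In dKO intact libraries it read 334, 322 and 348 CPM, and in control intact libraries 335, 448 and 344 CPM. Control stumps stood apart from the other 3 groups, which lay between 322 and 448 CPM. Gfra1 rose 2.01-fold in control nerve (log2 1.01, SE 0.128, edgeR adjusted p = 1.5e-05). In dKO nerve the log2 change was 0.19 (SE 0.127, edgeR adjusted p = 0.237; estimate ± 2 SE, -0.06 to 0.45), although the 3 dKO 5DPI libraries did lie above the 3 dKO intact ones. The level was 1.98-fold lower in dKO than in control stumps (log2 -0.98, SE 0.128, edgeR adjusted p = 0.000189). With the term for the library set that difference was -0.77 (edgeR adjusted p = 0.0228).

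The injury change of Gfra1 in dKO minus that in control was -0.82 (SE 0.180, edgeR adjusted p = 0.0238). That call is the least stable of the Gfra1 results: it was lost with control 5DPI replicate 1, the female library, left out (-0.74, adjusted p = 0.0558), and without control 5DPI replicate 2, dKO 5DPI replicate 3 or 4, dKO intact replicate 2 or 4, or control intact replicate 1 or 3 (largest adjusted p = 0.0749). It was also lost with the library set as a term (-0.61, adjusted p = 0.286). A block for replicate number, given below, lost that call too. Part of the Gfra1 model overlaps Gm16277, an antisense gene that shares 416 bases, 7.6% of its exons. Counts of Gm16277 were 22.1 to 28.6% of those of Gfra1 in 5DPI libraries and 12.9 to 16.8% in intact libraries. Strand use in counting is not stated, so reads of the pair cannot be told apart where they overlap. Gm16277 was lower in dKO than in control stumps as well (log2 -0.80, edgeR adjusted p = 0.00624). Adding its counts to Gfra1, an alternative chosen after seeing the data, gave -0.95 for the genotype difference at 5 days (edgeR adjusted p = 0.000387) and -0.80 for the difference of injury changes (adjusted p = 0.0344).

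Gfra2 and Gfra3 encode the co-receptors of neurturin and artemin. Gfra2 (chr14:70890120-70979838, plus strand) read 22.6, 24.5 and 24.6 CPM in dKO 5DPI libraries and 26.2, 28.9 and 25.8 CPM in control 5DPI libraries. It read 44.8, 41.3 and 54.4 CPM in dKO intact libraries and 56.7, 53.7 and 45.3 CPM in control intact libraries. Both 5DPI groups lay below both intact groups, and the dKO 5DPI libraries lay just below the control 5DPI ones. That genotype difference did not pass (log2 -0.17, SE 0.126, edgeR adjusted p = 0.398), and stumps did not overlap for 30.5% of all tested models. Gfra2 fell in dKO nerve (log2 -0.97, SE 0.126, edgeR adjusted p = 2.46e-05) and in control nerve (log2 -0.94, SE 0.125, adjusted p = 2.3e-05). The difference between those changes was -0.03, with an estimate ± 2 SE of -0.38 to 0.33. Gfra3 (chr18:34689898-34720387, minus strand) was the lowest of the 8 genes in CPM, at 4.14 ± 0.630 in dKO 5DPI and 3.603 ± 0.638 in control 5DPI libraries, and 12.4 ± 0.773 in dKO intact and 11.7 ± 5.84 in control intact libraries (SD, n = 3 each). One control intact library, replicate 2, read 18.4 CPM where replicates 1 and 3 read 9.07 and 7.69 CPM. Between genotypes at 5 days Gfra3 did not pass (log2 0.21, SE 0.294, edgeR adjusted p = 0.689). Gfra3 fell in dKO nerve (log2 -1.58, SE 0.292, edgeR adjusted p = 0.000546) and in control nerve (log2 -1.70, SE 0.294, adjusted p = 0.000253). The fall in dKO nerve was not called with the library set as a term (log2 -1.36, adjusted p = 0.102).

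Ret, on chr6:118151745-118197718 (minus strand), was detected at low levels in all 12 libraries. It read 21.1, 16.1 and 13.7 CPM in dKO 5DPI libraries and 8.52, 14.7 and 11.8 CPM in control 5DPI libraries. It read 26.3, 23.0 and 16.2 CPM in dKO intact libraries and 20.8, 14.1 and 17.6 CPM in control intact libraries. The control 5DPI libraries lay below the dKO intact ones, and every other pair of groups overlapped. The log2 change with transection was -0.36 in dKO nerve (SE 0.237, edgeR adjusted p = 0.234) and -0.58 in control nerve (SE 0.239, adjusted p = 0.0589). The log2 difference between genotypes at 5 days was 0.54 (SE 0.239, adjusted p = 0.160), with an estimate ± 2 SE of 0.06 to 1.02, so these libraries do not show that Ret was level between genotypes. The change in control nerve crossed the threshold under 6 of 25 alternatives, for example by DESeq2 (adjusted p = 0.0273) and without control 5DPI replicate 2 (0.0258), control intact replicate 2 (0.0223) or dKO intact replicate 4 (0.0483).

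**Figure D2:**
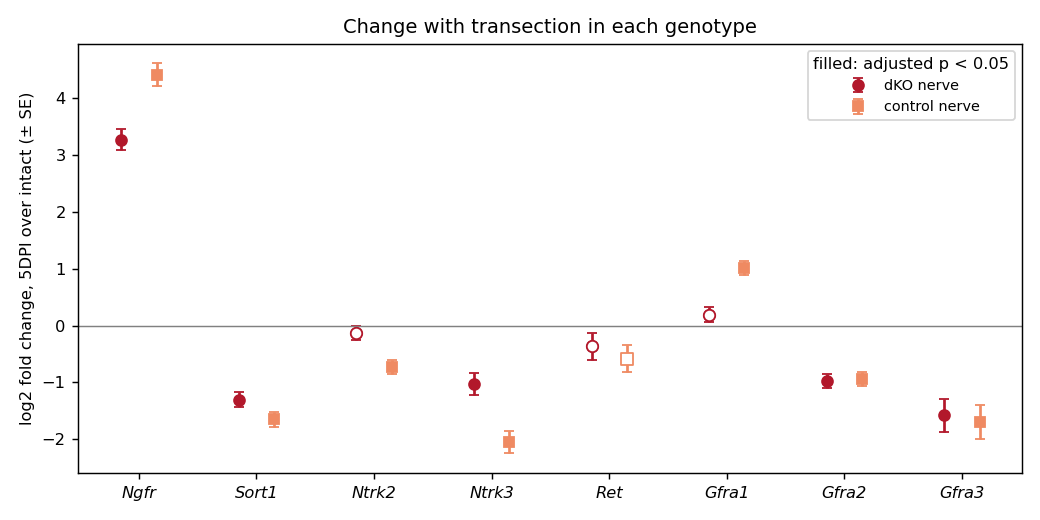
Log2 fold change of each receptor gene after transection (5DPI over intact) in dKO nerve (circles) and control nerve (squares), with bars of ± 1 SE and filled symbols for an adjusted p below 0.05. Ngfr stands at 3.27 in dKO and 4.41 in control nerve, and Gfra1 at 0.19 in dKO and 1.01 in control nerve.

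Both Trk genes differed between genotypes in the opposite direction to Ngfr and Gfra1. Ntrk2, on chr13:58806569-59133970 (plus strand), encodes the receptor of BDNF and of the Ntf5 product. It read 105, 122 and 100.1 CPM in dKO 5DPI libraries and 85.7, 69.1 and 80.3 CPM in control 5DPI libraries. In dKO intact libraries it read 118, 123 and 115 CPM, and in control intact libraries 132, 149 and 109.5 CPM. Control stumps were below every other group, whereas dKO stumps overlapped the dKO intact nerves. Ntrk2 fell in control nerve (log2 -0.73, SE 0.124, edgeR adjusted p = 0.000204), and the log2 change in dKO nerve was -0.12 (SE 0.123, adjusted p = 0.437). It was 1.39-fold higher in dKO than in control stumps (log2 0.48, SE 0.124, edgeR adjusted p = 0.0214). That call was lost without control 5DPI replicate 2 (0.40, adjusted p = 0.0928), without dKO 5DPI replicate 3 (0.39, adjusted p = 0.103) and with the library set as a term (0.44, adjusted p = 0.337). The difference between the injury changes, 0.61, did not pass (SE 0.174, edgeR adjusted p = 0.0825), though it passed without control intact replicate 3 (adjusted p = 0.0458).

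Ntrk3 encodes the receptor of the Ntf3 product and lies on chr7:78175959-78738012 (minus strand). It read 54.1, 44.2 and 49.7 CPM in dKO 5DPI libraries and 18.4, 29.7 and 31.5 CPM in control 5DPI libraries. In dKO intact libraries it read 117, 91.6 and 93.9 CPM, and in control intact libraries 92.7, 136 and 99.6 CPM. The dKO stumps lay between the control stumps and the intact nerves, with no overlap on either side. Ntrk3 fell in dKO nerve (log2 -1.03, SE 0.195, edgeR adjusted p = 0.000801) and in control nerve (log2 -2.05, SE 0.201, adjusted p = 2.03e-06). It was 1.86-fold higher in dKO than in control stumps (log2 0.90, SE 0.197, edgeR adjusted p = 0.00967). With the library set as a term that difference was 0.65 and not called (adjusted p = 0.364). The difference between the injury changes, 1.01, did not pass (SE 0.275, edgeR adjusted p = 0.0703). It passed by DESeq2 (adjusted p = 0.0147), as did that of Ntrk2 (adjusted p = 0.0358), and without control 5DPI replicate 4 (edgeR adjusted p = 0.038).

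Marker levels of several cell types stand beside these Trk differences. Of 8 nerve fibroblast markers 2 were higher in dKO stumps, Col1a1 and Mfap5, and all 8 together summed to 10267 to 11841 CPM in dKO 5DPI and 6085 to 9410.2 CPM in control 5DPI libraries. Of 8 mural cell markers 1 was higher, Cspg4 (log2 0.84, edgeR adjusted p = 0.00739), and all 8 summed to 961 to 3626 CPM in dKO 5DPI and 819 to 1083 CPM in control 5DPI libraries, which overlapped. The 8 endothelial markers summed to 633 to 866 CPM in dKO 5DPI and 457 to 538 CPM in control 5DPI libraries, without overlap, though none passed the test (edgeR; 5 had an unadjusted p under 0.05). Median log2 differences between genotypes at 5 days were 0.34 over the fibroblast, 0.79 over the mural and 0.52 over the endothelial markers. They were 2.13 over the 10 myelin genes, all higher in dKO stumps, and 0.33 over the 4 perineurial markers, 0 of them called. Over all tested models the median was -0.02, with 3.12% called higher and 8.97% lower. Both Trk genes fell with injury in control nerve. Median log2 changes there were 0.48 over fibroblast, -0.52 over mural, -0.12 over endothelial, -0.59 over perineurial and -6.07 over myelin markers. No marker of these lists was at 0 throughout a group. The part of these cell types in the Trk differences was not tested.

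Sort1, on chr3:108284082-108361511 (plus strand), had levels that separated 5DPI from intact libraries and overlapped between genotypes at 5 days. It read 105, 102 and 89.1 CPM in dKO 5DPI libraries and 109, 92.2 and 91.8 CPM in control 5DPI libraries. It read 229, 249 and 253 CPM in dKO intact libraries and 274, 366 and 278 CPM in control intact libraries. The stumps of both genotypes overlapped, while each dKO intact library lay below each control intact library. Sort1 fell 2.46-fold in dKO nerve (log2 -1.30, SE 0.127, edgeR adjusted p = 1.49e-06) and 3.13-fold in control nerve (log2 -1.65, SE 0.128, adjusted p = 9.99e-08). The genotype difference was 0.02 at 5 days (SE 0.125, edgeR adjusted p = 0.938; estimate ± 2 SE, -0.23 to 0.27). In intact nerve it was -0.33 (SE 0.124, edgeR adjusted p = 0.850).

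**Figure D3:**
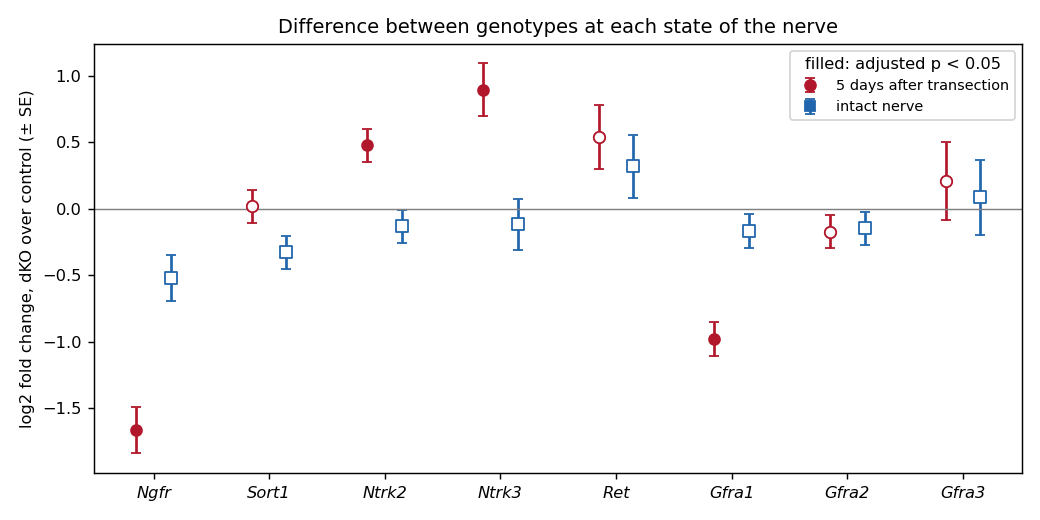
Log2 difference between genotypes (dKO over control) of each receptor gene 5 days after transection (circles) and in intact nerve (squares), with bars of ± 1 SE and filled symbols for an adjusted p below 0.05. At 5 days Ngfr (-1.67) and Gfra1 (-0.98) lie below 0 and Ntrk2 (0.48) and Ntrk3 (0.90) above it, and no intact value is filled.

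Counted together, 7 of the 8 receptor genes were called after transection in control nerve (2 higher, 5 lower), where 46.8% of all tested models were called, 24.4% higher and 22.4% lower. In dKO nerve 5 of 8 were called (1 higher, 4 lower), where 44.7% of tested models were, 22% higher and 22.6% lower. The 5DPI and intact libraries of 6 receptor genes did not overlap in dKO nerve, and those of 7 did not in control nerve, against 61% and 53.3% of all tested models. The median log2 change over the 8 genes was -0.67 in dKO and -0.84 in control nerve, beside 0.05 and 0.09 over all tested models. Between genotypes at 5 days 4 of 8 were called (2 higher, 2 lower), where 12.1% of tested models were called, 3.12% higher and 8.97% lower. Libraries of 5 of the 8 did not overlap between dKO and control stumps, against 30.5% of tested models. The difference between the injury changes was called for 2 of 8 genes, both lower, where 2.9% of tested models were called, 0.737% higher and 2.17% lower. The control stumps stand in both the injury change of control nerve and the genotype difference at 5 days, so those counts share libraries. Markers of other cells moved with injury too: all 10 myelin genes fell in both genotypes, and the 8 macrophage markers summed to 720.3 to 967 CPM in dKO 5DPI and 736 to 1094 CPM in control 5DPI libraries, against 158 to 248 CPM in dKO intact and 139 to 216 CPM in control intact libraries. Their part in the receptor changes was not tested. In intact nerve 0 of 8 were called between genotypes, where 0.00447% of tested models, 1 gene in all, were called and 1299 had an unadjusted p under 0.05 (edgeR). DESeq2 called 0 of the 8 in intact nerve as well, with 2 of them left without an adjusted p. Libraries of 2 of the 8, Ngfr and Sort1, did not overlap there, against 14.6% of tested models.

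Set per length, with exon lengths from GENCODE M21, the order of the receptor genes differed between stump and intact nerve. The values that follow are RPKM, the CPM divided by exon length in kilobases, and are approximate, since the authors' annotation is not given. Ngfr led in both stumps, at 149 ± 18.2 in dKO 5DPI and 475 ± 86.5 in control 5DPI libraries, and was the third gene in intact nerve, at 15.5 ± 3.61 in dKO intact and 22.3 ± 2.38 in control intact libraries (SD, n = 3 each). Gfra1 was the second gene in stumps, at 69.9 ± 4.82 in dKO 5DPI and 138 ± 17.20 in control 5DPI libraries. It led in intact nerve, at 61.2 ± 2.42 in dKO intact and 68.6 ± 11.5 in control intact libraries. Sort1 came next in stumps (13.1 in dKO 5DPI and 12.9 in control 5DPI) and was the second in intact nerve (32.2 in dKO intact and 40.4 in control intact). Gfra2 followed in all 4 groups, and in dKO intact nerve it overlapped Ngfr. Ntrk2, Gfra3, Ntrk3 and Ret held the lower places, between 1.63 and 6.22 RPKM in dKO groups and between 0.879 and 6.76 RPKM in control groups. Most neighbours among these 4 overlapped. The exceptions were Ntrk2 above the rest in both stumps, Ntrk2 above Ntrk3 in dKO intact nerve and Ret above Ntrk3 in control stumps. This order depends on exon lengths summed over all transcripts, 30170 bases for Ntrk3 and 6763 for Ret. In CPM, without length, Ntrk3 (18.4 to 31.5) lay above Ret (8.52 to 14.7) in control 5DPI libraries. In control intact libraries Ntrk2 averaged 130 and Ntrk3 109 CPM, above Ngfr at 76.7 and Gfra2 at 51.9 CPM.

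Gfra1 made up 88.8 ± 0.719% of the summed GFRα RPKM in dKO 5DPI and 93.6 ± 0.764% in control 5DPI libraries, and 75.9 ± 0.916% in dKO intact and 77.0 ± 2.10% in control intact libraries (SD, n = 3 each). Its share was thus higher in stumps of both genotypes than in intact nerves, also in dKO stumps, where Gfra1 itself was not called and Gfra2 and Gfra3 fell. Gfra2 held 8.62% in dKO 5DPI, 5.20% in control 5DPI, 16.4% in dKO intact and 16.6% in control intact libraries. Gfra3 held the rest, 2.63% in dKO 5DPI, 1.23% in control 5DPI, 7.74% in dKO intact and 6.36% in control intact libraries. The 3 co-receptors together reached 78.7 ± 4.80 RPKM in dKO 5DPI and 148 ± 17.4 in control 5DPI libraries, and 80.6 ± 4.16 in dKO intact and 89.2 ± 14.8 in control intact libraries. Gfra1 exceeded Ret 24.1 to 32.5-fold in dKO 5DPI and 65.1 to 122-fold in control 5DPI libraries on the RPKM scale, and 15.7 to 26.5-fold in dKO intact and 19.9 to 39.4-fold in control intact libraries. The dKO stumps overlapped both intact groups in this ratio, and the control stumps lay above the other 3 groups. The ratio of Ngfr to Sort1 was 10.8 to 12.1 in dKO 5DPI and 31.5 to 40.2 in control 5DPI libraries, and 0.426 to 0.587 in dKO intact and 0.417 to 0.678 in control intact libraries. Sort1 RNA thus exceeded Ngfr RNA in each intact library and the reverse held in each stump. No test was made of these shares and ratios.

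**Figure D4:**
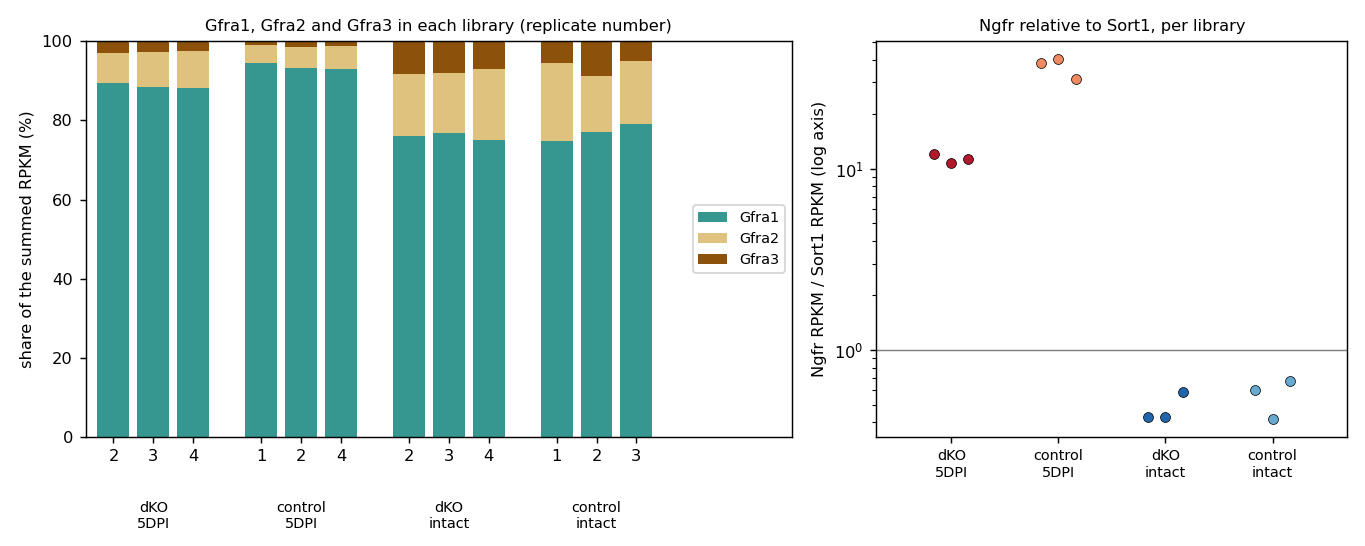
Left, share of Gfra1, Gfra2 and Gfra3 in their summed RPKM in each library, in percent, with the replicate number under each bar; right, ratio of Ngfr to Sort1 RPKM per library on a log axis, with a line at equal levels. Gfra1 holds 88.8% on average in dKO 5DPI and 93.6% in control 5DPI libraries, and the ratio is above 1 in the 6 stumps alone.

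The ligands of these receptors were read in the same libraries. Of 8 ligand genes 6 had enough reads to test; Ntf5 reached at most 10 and Nrtn at most 22 counts in a library. After transection 5 of the 6 rose in dKO nerve and 4 rose in control nerve, and none fell. Over all tested models 22% rose and 22.6% fell in dKO nerve, and 24.4% rose and 22.4% fell in control nerve. Between genotypes at 5 days 3.12% of tested models were called higher and 8.97% lower in dKO. Gdnf, the ligand of GFRα1, read 54.2, 41.5 and 47.8 CPM in dKO 5DPI and 175, 133 and 113 CPM in control 5DPI libraries, while both intact groups stayed below 1 CPM. Gdnf rose in dKO nerve (log2 6.81, SE 0.34, edgeR adjusted p = 9.62e-09) and in control nerve (log2 7.84, SE 0.34, adjusted p = 1.63e-09). It was lower in dKO than in control stumps (log2 -1.55, SE 0.23, edgeR adjusted p = 0.000917), which made it the only ligand called between genotypes at 5 days; with the library set as a term it was not called (-1.23, adjusted p = 0.0528). Artn, which encodes artemin, rose by 2.85 in dKO and 3.13 in control nerve on the log2 scale (edgeR adjusted p = 0.000115 in dKO and 4.05e-05 in control nerve). Bdnf rose by 2.02 in dKO and 2.34 in control nerve over intact levels below 1 CPM (edgeR adjusted p = 0.0132 in dKO and 0.00444 in control nerve). Ntf3, also called in dKO nerve, is named after its values were seen (log2 1.09, edgeR adjusted p = 0.0282). Once the library set was modelled, 3 of the 6 ligand genes were called in dKO nerve, and the Bdnf call there was lost without dKO 5DPI replicate 2 (adjusted p = 0.078), which left 3 called. Without control intact replicate 2, 1 ligand gene was called higher in dKO stumps.

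**Figure D5:**
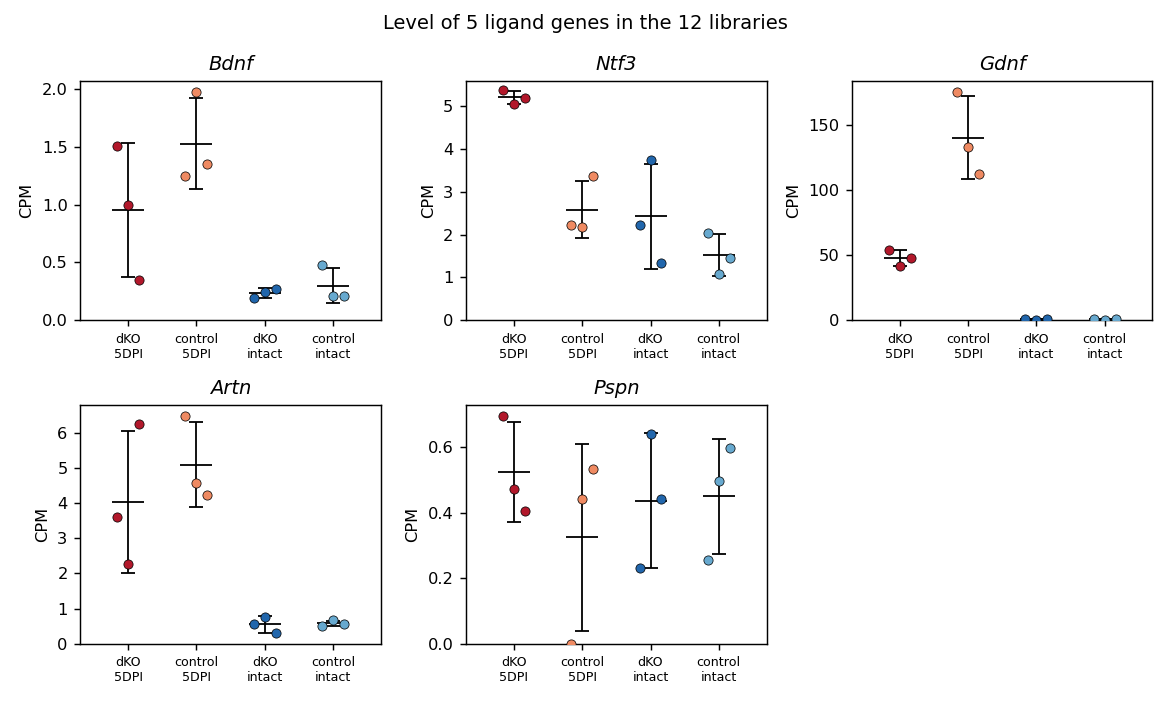
Level in CPM (linear axes from 0) of 5 ligand genes, with points for libraries and bars for the mean ± SD of 3. Gdnf lies between 41.5 and 54.2 CPM in dKO 5DPI and between 113 and 175 CPM in control 5DPI libraries.

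Other receptors of the same ligands gave a mixed picture. Of 12 tested, 1 rose and 4 fell in dKO nerve, and 3 rose and 4 fell in control nerve. Called shares over all tested models were 44.7% in dKO nerve, 46.8% in control nerve and 12.1% between genotypes at 5 days. Ncam1, an adhesion molecule that GDNF can use in place of Ret, fell in dKO (log2 -2.31, edgeR adjusted p = 3.42e-07) and control nerve (log2 -2.69, adjusted p = 5.69e-08). Sorcs1, a relative of sortilin, fell with log2 changes of -1.67 in dKO and -2.61 in control nerve. Rtn4r, the Nogo receptor that partners p75NTR, fell by log2 changes of -2.08 in dKO and -2.52 in control nerve, and Sdc3, a syndecan that binds GDNF, by -1.12 in dKO and -1.15 in control nerve. Among those that rose, named after their values were seen, were Sorcs2 in dKO nerve (log2 0.59) and Lingo1 (1.54) and Nradd (0.63) in control nerve. At 5 days 1 of the 12 was higher in dKO, Sorcs1 (log2 0.73, edgeR adjusted p = 0.0103), and 1 was lower, Lingo1 (log2 -1.07, adjusted p = 0.00615), a co-receptor of p75NTR. Neither was called with the library set as a term (adjusted p = 0.142 for Sorcs1 and 0.208 for Lingo1), and Sorcs1 was not called without control 5DPI replicate 2 (0.052) or dKO 5DPI replicate 3 (0.0545). The number higher at 5 days was 2 without control intact replicate 2, control 5DPI replicate 4 or dKO 5DPI replicate 4. The number that rose in dKO nerve was 2 without control intact replicate 1 or control 5DPI replicate 1 and 3 without dKO 5DPI replicate 4.

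Downstream of p75NTR, 9 genes of its cleavage by ADAM proteases and γ-secretase were tested. Over all tested models the share called was 44.7% in dKO nerve, 46.8% in control nerve and 12.1% between genotypes at 5 days. Of the 9 cleavage genes 0 rose and 4 fell in dKO nerve, and 2 rose and 3 fell in control nerve. The number that rose in control nerve was 0 without control intact replicate 2 or control 5DPI replicate 2 and 1 without control intact replicate 3. Adam10, a sheddase, fell with log2 changes of -2.18 in dKO and -1.98 in control nerve. At 5 days 3 of the 9 were lower in dKO, among them Psenen (log2 -0.46, edgeR adjusted p = 0.0301) and Adam10 (-0.60, adjusted p = 0.0373). Once the library set was modelled, 0 of the 9 were called (edgeR). The Psenen and Adam10 calls were lost without control 5DPI replicate 1 or 2 or dKO 5DPI replicate 3 or 4 (largest adjusted p = 0.108 for Psenen and 0.121 for Adam10), and the Adam10 call also without dKO 5DPI replicate 2 or dKO intact replicate 3. Of 9 tested p75NTR adaptor genes, 1 rose and 1 fell in dKO nerve, and 2 rose and 2 fell in control nerve. The 1 that rose in dKO nerve was Ngfrap1 (log2 0.39, edgeR adjusted p = 0.0442), a call lost under 14 of 25 alternatives, among them leaving out any intact or dKO 5DPI library and the term for the library set (largest adjusted p = 0.42). The number that fell was 2 in dKO nerve without control intact replicate 2, and 1 in control nerve without control intact replicate 1 or control 5DPI replicate 4. Lower in dKO stumps were Ngfrap1 (log2 -0.87, edgeR adjusted p = 0.00153), which encodes a p75NTR-binding protein, and Arhgdia (-0.70, adjusted p = 0.00124), whose product binds p75NTR, and the Arhgdia call was lost with the library set as a term (adjusted p = 0.0724). Maged1, whose product binds p75NTR, fell with log2 changes of -0.67 in dKO and -1.06 in control nerve.

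Of 22 adaptor genes of Trk and Ret kinases, 9 rose and 8 fell in dKO nerve, and 7 rose and 7 fell in control nerve. All tested models gave called shares of 44.7% in dKO nerve, 46.8% in control nerve and 12.1% between genotypes at 5 days. Dok4, an adaptor that binds Ret, averaged 69.5 ± 18.1 CPM in dKO 5DPI and 217 ± 19.4 CPM in control 5DPI libraries, and 21.9 ± 2.11 CPM in dKO intact and 17.5 ± 4.53 CPM in control intact libraries (SD, n = 3 each). It rose in dKO nerve (log2 1.67, edgeR adjusted p = 2.12e-05) and in control nerve (log2 3.63, adjusted p = 1.87e-08), and the change was smaller in dKO (difference -1.96, SE 0.28, adjusted p = 0.00214). At 5 days 3 of the 22 were higher and 2 lower in dKO, led by Dok4 (log2 -1.65, edgeR adjusted p = 0.000158) and Gab1, a docking protein (log2 0.48, adjusted p = 0.00943). The number higher was 1 without control intact replicate 3, dKO intact replicate 4, control 5DPI replicate 2 or any 1 dKO 5DPI library, and 5 without control intact replicate 2. The number lower was 1 without control intact replicate 3, dKO intact replicate 3, control 5DPI replicate 1 or 2 or any 1 dKO 5DPI library. With the library set as a term 1 was higher and 1 lower. The Dok4 and Gab1 calls were kept whichever library was left out. Of 6 tested proteases that process proneurotrophins, 2 rose and 1 fell in dKO nerve, 3 rose and 1 fell in control nerve, and 0 were called between genotypes at 5 days (edgeR). Without control intact replicate 2 the last count was 2 and without dKO 5DPI replicate 4 it was 1. The number that rose in dKO nerve was 1 without dKO intact replicate 3 or 4 or dKO 5DPI replicate 2, and the number that fell in control nerve was 2 without control intact replicate 2. Plat, tissue plasminogen activator, rose by 1.36 in dKO and 1.14 in control nerve on the log2 scale, and Pcsk6, a proprotein convertase, fell with log2 changes of -1.54 in dKO and -1.67 in control nerve.

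The patterns most like each receptor gene were ranked by the root mean square difference of centred log2 CPM over the 12 libraries, among 10937 named genes (10938 for Gfra3). Closest to Ngfr were Foxm1 (0.229), Ccna2 (0.245) and Prc1 (0.288), and closest to Gfra1 were Tubb5 (0.102), Rhou (0.103) and Tmem48 (0.113). Gcap14 (0.0939) was closest to Sort1, Atxn7l1 (0.112) to Ntrk2, Akap12 (0.184) to Ntrk3, Gatsl3 (0.180) to Ret, Kctd11 (0.115) to Gfra2 and Spen (0.220) to Gfra3.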

How the data were processed

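PolyA RNA of mouse sciatic nerve was sequenced with an Ion Total RNA-Seq kit, per the labels' protocols. The authors used DESeq2 with R 4.2.1 and the mm10 build, per the submitters' processing notes; for the aligner, counter, strand setting and annotation, the answer is not given in the sources used here. Whole-number read counts per gene model were deposited as a raw table. A second deposited table holds normalized signal values, the authors' counts over 1 factor per library (constant within 0.124%), used in 1 alternative. No replicate pair differed as little as sampling noise allows.

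Counts were tested with edgeR 4.0.16 (R 4.3.3): filterByExpr with a minimum count of 10, TMM, and robust quasi-likelihood F-tests on 1 fit of 12 libraries with a mean per group. Benjamini-Hochberg adjustment was over 22384 models, threshold 0.05. With 3 libraries a group the precision is set mainly by their number. The script was tested on simulated data. Alternatives were DESeq2 1.42.0, other scalings and filters, limma 3.58.1, added terms, a replicate block and leaving out each library. The receptor genes, the lists of related genes and markers, and the tests were chosen with earlier results of these data known. All 8 receptor genes are named, and of each list up to 4 genes with the smallest p in a comparison, some of which are not reported here. Levels per length used GENCODE M21 exon unions, promoters the RefSeq table of GRCm38.p6. Replicate numbers were checked for pairing by the correlation of deviations from group means, which ran between -0.177 and 0.315 for same-numbered libraries. The 5DPI libraries of dKO 2, dKO 3 and control 2 correlated best with their own number, and those of dKO 4 and control 1 did not. The numbers were not taken to pair the libraries, which leaves pairing unsettled. Control 5DPI replicate 1 read as female and control intact replicate 1 as male (3 Xist counts, 3068 of Y-linked genes). Number 1 thus does not mark 1 animal in control nerve. Nothing in the labels says which animal a number marks. Stumps and contralateral nerves may come from the same animals, whereas the main fit treats the 12 libraries as independent. The p-values measure the spread between these libraries.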

Additional observations from a re-analysis of the deposited data

Results flagged for a closer look

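Ngfr and Gfra1 stood out because the same injury changed them to a different extent in dKO and control nerve, by the test of the difference itself. For Ngfr the change in dKO nerve minus that in control nerve was -1.15 on the log2 scale, and for Gfra1 it was -0.82. The call was lost under 5 of 24 alternatives for Ngfr (largest adjusted p = 0.258) and under 14 of 24 for Gfra1 (largest adjusted p = 0.286). Not all alternatives are distinct. Control 5DPI replicate 1 was the only library that read as female, so a term for sex amounts to leaving it out. All 3 dKO 5DPI libraries read lower than all 3 control 5DPI libraries for both genes. Libraries of those groups did not overlap for 30.5% of all tested models. That separation describes the genotype difference at 5 days, in libraries that also enter the difference of injury changes.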

How the results depend on the processing

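The 40 results on single receptor genes were compared over 992 combinations with an alternative: 932 kept direction and side of the threshold, 26 lost the call, 13 gained one and 21 changed sign. Part of this agreement was fixed in advance. The threshold of 0.01 reuses the main fit, and adding Gm16277 counts alters the counts of Gfra1 alone. Results not called in either setting, with the same sign, count as kept. The lower levels of Ngfr and Gfra1 in dKO stumps were called under every alternative run. The receptor genes called in the difference of injury changes varied. The number called higher was 2 by DESeq2 and 1 with upper-quartile factors or with the replicate block, against 0. The number called lower was 1 with DESeq2 size factors, upper-quartile factors or sex as a covariate, and 0 at a threshold of 0.01, with the library set as a term or with the replicate block, against 2; leaving out 1 library gave 0 to 2 lower and 0 to 1 higher. Genes called higher in dKO stumps numbered 1 at a threshold of 0.01 or with the replicate block, 0 with the library set as a term and 1 to 2 when 1 library was left out, against 2. In dKO nerve 2 genes, Ngfr and Gfra1, were called higher after injury with upper-quartile factors, against 1; that scaling moved the median log2 change of all models in dKO nerve to 0.19, against 0.05. With the replicate block the difference of injury changes was -1.35 for Ngfr (edgeR adjusted p = 0.0682) and -0.87 for Gfra1 (0.0959), both not called. The replicate numbers were not taken to pair the libraries. By deviations from group means dKO 2, dKO 3 and control 2 correlated best with their own number. The libraries of dKO 4 and control 1 did not, and those of control 1 differ in sex.

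Of the results that changed sign, none was called. The Gfra2 difference of injury changes was 0.0132 by DESeq2, 0.0137 with DESeq2 size factors, 0.0131 on the authors' normalized values, 0.00325 with a stricter filter, 0.102 with upper-quartile factors, 0.0378 with the library set as a term and 0.0440 with the replicate block. It ran between -0.11 and 0.10 when 1 library was left out. Ntrk2 in dKO injury was 0.0181 with upper-quartile factors, and Sort1 between genotypes at 5 days was -0.0110 without the low-count filter. When 1 library was left out, Sort1 at 5 days ran between -0.0295 and 0.10, Gfra3 between genotypes in intact nerve between -0.14 and 0.58 (negative without control intact replicate 1 or 3), Ntrk3 there between -0.238 and 0.0809 (positive without control intact replicate 2), and the Gfra3 difference of injury changes between -0.33 and 0.35.

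Without length, on the CPM scale, Gfra1 held 93.1% in dKO 5DPI, 96.1% in control 5DPI, 85.0% in dKO intact and 85.5% in control intact libraries. Gfra2 then held 5.85%, 3.45%, 11.8% and 11.9%, and Gfra3 1.01%, 0.461%, 3.16% and 2.58%, in the same groups. Over all tested models the genotype difference at 5 days was called for 699 higher and 2008 lower; it was 1266 higher by DESeq2, 145 and 370 with the library set as a term, 349 and 1037 with the replicate block, and 456 and 1275 with sex as a covariate. Leaving out 1 library gave 388 to 1405 higher and 1175 to 2703 lower; the count moved by over 1.5 times without control 5DPI replicate 1 (459 and 1260), dKO 5DPI replicate 2 (388 and 1288) or dKO 5DPI replicate 3 (410 and 1175), and, for higher alone, without control intact replicate 2 (1208) or control 5DPI replicate 4 (1405). The difference of injury changes was called for 165 higher and 485 lower, 358 and 738 by DESeq2, 75 and 97 with the library set and 89 and 201 with the replicate block. Leaving out 1 library gave 102 to 372 higher and 251 to 869 lower, with both extremes from dKO 5DPI replicate 3 (102 and 251) and control 5DPI replicate 4 (372 and 869); the number lower also moved by over 1.5 times without control intact replicate 3 (292), dKO intact replicate 2 (295) or 4 (320) or control 5DPI replicate 2 (318). Injury in dKO nerve gave 2146 higher and 2153 lower with the library set, against 4930 and 5067, and in intact nerve DESeq2 called 5 higher and 7 lower, against 0 and 1. The cause of these shifts was not tested.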
